A study of Mus musculus with 12 samples.

Results

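Gene expression in the seminal vesicles of adult wild type (WT) male mice was compared between animals given diethylstilbestrol (DES), a synthetic estrogen, as newborns and animals given the vehicle. The comparison rests on 6 of the 12 arrays of the series, 3 labelled WT-DES (WT_DES) and 3 labelled WT-veh (WT_vehicle), and covers 20102 tested genes of the 30063 that the platform annotation names with exactly 1 symbol. All mice were C57BL/6 males sampled at week 10. DES pups were injected under the skin with 2 µg per pup per day in corn oil on days 1 to 5, and vehicle pups received the same volume of corn oil. The other 6 arrays come from aERKO mice, labelled as lacking estrogen receptor alpha, given vehicle (aERKO_vehicle, 3 arrays) or DES (aERKO_DES, 3 arrays) in the same way. They share the spread estimate of the fit and their own response to DES is set beside that of WT at the end. The labels do not say how the allele was made, nor whether the 3 samples of a group came from different animals. The p-values therefore reflect the variation among these samples alone, and that variation may be technical.

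Seminal vesicles are androgen-dependent glands whose columnar secretory epithelium, resting on basal cells and wrapped in smooth muscle, makes most of the fluid of the ejaculate. DES binds the estrogen receptors alpha and beta, of which alpha is encoded by Esr1 and beta by Esr2. Exposure of the newborn male reproductive tract to estrogens is known to alter the adult glands long after the hormone has gone, and the design asks which transcripts still differ in the adult gland.

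All values are deposited log2 levels, and a difference is the WT_DES mean minus the WT_vehicle mean on that scale, with its standard error (SE) from limma. A gene is called, and is said to have risen or fallen, at a Benjamini-Hochberg adjusted p below 0.05 over all genes tested. The tissue's own products were present in both groups: the mean level of 10 seminal vesicle secretory genes lay between 13.49 and 13.59 on the WT_vehicle arrays and between 13.28 and 13.50 on the WT_DES arrays. Pairs of WT_DES arrays correlated across genes at 0.982 to 0.989, pairs of WT_vehicle arrays at 0.994 to 0.996, and pairs across the groups at 0.877 to 0.919. The spread within a group was wider after DES, with a median SD over genes of 0.12 in WT_DES and 0.06 in WT_vehicle, and 78.6% of genes had the larger SD in WT_DES. On the second principal component, which held 5.6% of the variance, WT_DES 3 (-17.3) stood apart from WT_DES 1 (4.1) and WT_DES 2 (11.9), beside aERKO_DES 3 (-23.3). Without these arrays numbered 3 the call counts given next became 4787 higher, 5886 lower, 962 at least 2-fold higher and 87 at least 2-fold lower.

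The response was broad but mostly small. Of the genes tested, 20.7% were called higher and 23.3% lower in WT_DES, while 4.59% were called at least 2-fold higher (922 genes) and 0.532% at least 2-fold lower (107 genes). Of all calls, 88.3% were under 2-fold. The large differences ran one way: 356 genes were called at least 4-fold higher and 4 at least 4-fold lower, and beyond 8-fold there were 179 higher genes and 0 lower. At least 32-fold increases numbered 60. These counts include segments of immunoglobulin and T cell receptor genes, which were 167 of the 922 higher genes and 0 of the 107 lower. The median excess of these segments over the vehicle mean was 4.25, 4.27 and 4.37 on WT_DES 1, 2 and 3. They therefore weigh heavily in the counts of large increases. The WT_DES and WT_vehicle arrays did not overlap in 60.9% of genes. The split of the small calls depends on how the arrays are scaled. The median of all genes was -0.05, and moving the arrays to the same level of the 4 hybridization controls, which read 0.36 lower in WT_DES, put it at 0.31, with 8345 genes called higher and 350 lower. Moving the arrays to the same median put it at -0.12, with 3404 higher and 7115 lower. All 922 genes called at least 2-fold higher and all 107 called at least 2-fold lower kept their call and direction under these shifts and under quantile normalization, although under the shift to the hybridization controls only 30 genes were still at least 2-fold lower.

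**Figure D1:**
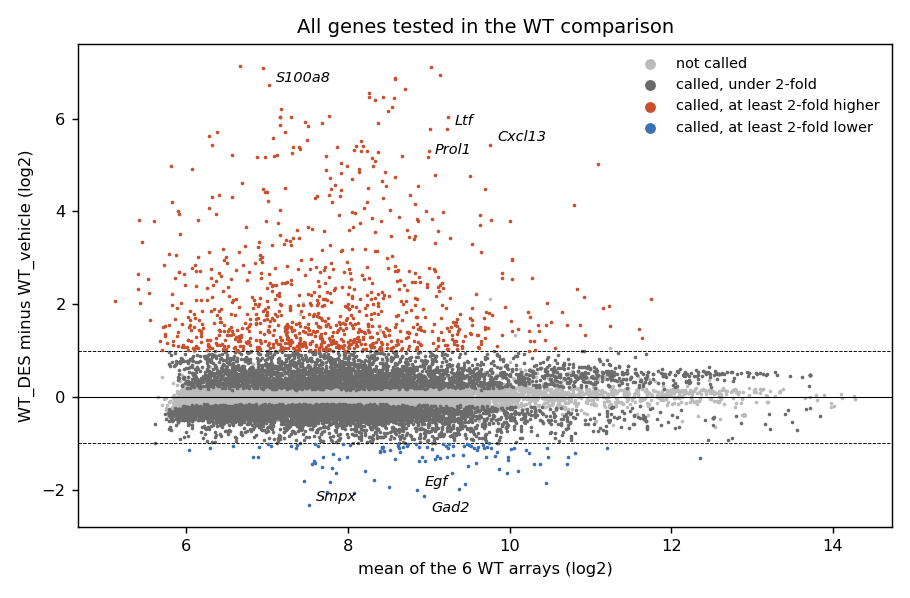
Difference between WT_DES and WT_vehicle (vertical axis, log2) against the mean of the 6 WT arrays (horizontal axis, log2), 1 point for each of 20102 genes, with dashed lines at 2-fold. The 922 genes called at least 2-fold higher reach up to and beyond 6, whereas the largest decrease, that of Smpx, is -2.33.

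The ranking that follows holds only called genes whose groups do not overlap. It leaves out provisional names, small RNAs and the segments and constant genes of immunoglobulins and T cell receptors. Its 12 largest fitted increases included S100a8, which encodes a calcium-binding protein packed into neutrophils. The ranking of decreases follows the same rule. The S100a8 level was 3.73, 3.72 and 3.55 on the WT_vehicle arrays and 10.17, 10.74 and 10.24 on the WT_DES arrays. Every vehicle value lay below the mean of the array's background controls in WT_vehicle (5.31). The starting level and the size of the rise were therefore not measured. The DES mean exceeded that mean by 5.08, while the same controls averaged 4.87 in WT_DES. For other genes too, below the background controls means a vehicle mean under 5.31, and heights above them are counted from 5.31. In this ranking, the largest increases measured on both sides were those of Ltf (5.78), Cxcl13 (5.44) and S100a9. Its partner S100a9 stood at 6.04, 6.05 and 6.10 and then at 11.08, 11.69 and 11.02. The S100a9 groups are about 5 units apart, and the difference was 5.20 ± 0.16 (limma adjusted p = 6.95e-11).

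Ltf encodes lactoferrin, an iron-binding secretory protein induced by estrogen in the mouse uterus and stored in neutrophil granules. It read 6.38, 6.27 and 6.36 in WT_vehicle and 11.64, 12.31 and 12.40 in WT_DES. Cxcl13, the chemokine that draws B cells, read 7.58, 6.67 and 6.88 and 12.29, 12.72 and 12.44. Both genes were high on all 3 WT_DES arrays, with gaps of more than 4 units to the nearest vehicle array.

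Il1b, the gene of the cytokine interleukin 1 beta, rose from 5.85, 5.72 and 5.58 to 10.32, 11.22 and 10.17, a difference of 4.85 ± 0.20 (limma adjusted p = 2.03e-09). Serpina3n, a serine protease inhibitor of the acute phase, rose from 7.80, 7.16 and 7.41 to 11.73, 12.45 and 11.67 (difference 4.50). Lyz2, the lysozyme of macrophages and neutrophils, rose from 8.70, 8.45 and 9.03 to 12.70, 13.08 and 12.80 (17.6-fold). In each of these 3 genes WT_DES 2 was the highest array. Retnlg, another neutrophil product, and Sprr2f, a cornified envelope precursor, started below the background controls (4.89, 4.91 and 4.90 and 5.15, 4.96 and 4.79) and reached 9.01, 9.84 and 8.53 and 8.90, 10.15 and 9.36.

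Prol1, of the proline-rich secretory proteins of salivary and lacrimal glands, had the widest range over WT_DES. Its vehicle values were nearly equal (6.35, 6.44 and 6.42), but its DES values were 13.39, 9.91 and 11.42, so that the 3 WT_DES arrays differed among themselves by over 3 units and WT_DES 1 was the highest. The groups did not overlap, which the ranking required, and the difference was 5.17 ± 0.61 (limma adjusted p = 3.23e-05). Leaving out each WT array in turn gave 4.26 to 6.0.

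The decreases were smaller. Smpx, a small protein of striated and smooth muscle, read 8.47, 8.82 and 8.75 in WT_vehicle and 6.81, 6.06 and 6.20 in WT_DES, and fell by 2.33 ± 0.18 (limma adjusted p = 8.56e-07). Gad2, which makes the transmitter GABA from glutamate, went from 9.89, 10.17 and 9.97 to 8.47, 7.69 and 7.47. Egf, the epidermal growth factor gene, went from 10.07, 9.66 and 9.83 to 8.36, 7.73 and 7.49. WT_DES 1 was the least lowered array in all 3.

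Aass, which starts the breakdown of lysine, fell by 1.83, and Pnliprp1, a relative of pancreatic lipase, fell by 1.89. Slc26a3, a chloride and bicarbonate exchanger of epithelial cells, fell from 9.12, 9.21 and 9.32 to 8.07, 7.28 and 6.94. Orm3, an acute phase glycoprotein gene, fell by 1.64 but spread widely after DES (10.0, 9.10 and 8.34 against 10.69, 10.87 and 10.80). The others of the 12 were Doxl2 (fell by 2.07), Nxf7 (fell by 2.05), Glb1l3 (fell by 1.86), Tent5d (fell by 1.81) and Fgl1 (fell by 1.63).

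**Figure D2:**
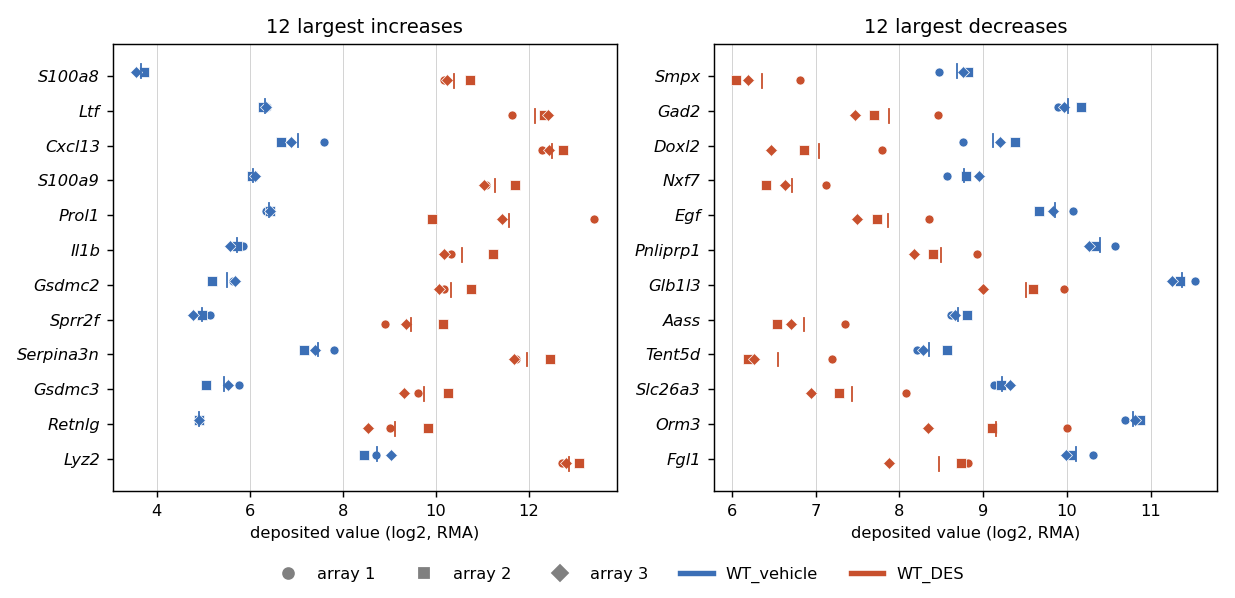
Deposited log2 levels of the 12 largest increases and 12 largest decreases, 1 symbol per array (circle, square and diamond for arrays 1, 2 and 3) and a bar at each group mean. The 2 groups are separate in every gene because only such genes were ranked. Among the decreases WT_DES 1 lies nearest to the vehicle arrays in all 12.

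Gene lists are described next by the members with the largest called differences. Outside that rule, and chosen after their values were seen, are Ackr4, Agr2, Axin2, Ccl25, Cd52, Cma1, Ctse, Cx3cl1, Cxcl3, Gbp2, the Gsdma genes, Hpgd, Igkv5-39, Krt10, Krt16, Lor, Ly96, Mcpt4, Muc5ac, Muc5b, the Naip genes, Nlrc4, Plau, Prf1, Ptgs2, Spdef, the Stat5 genes, Tlr4, Tpsb2 and Znrf3. With the arrays moved to the hybridization controls, 0 members of the lists that hold Ackr4, Cd52, Nlrc4, the Stat5 genes, Hpgd, Axin2 and Znrf3 were called lower, so the falls given for these genes hold for the deposited scaling. The background for every count of risen or fallen members is the 20.7% and 23.3% given above. To be tested, a gene needed only 3 of the 12 arrays above the array median, so the 3 WT_DES arrays alone could admit it. Counts among tested members therefore favour genes high in WT_DES. Of members on the array, this filter removed 9 of 28 in the cornified envelope list, 7 of 15 in the mast cell and eosinophil list and 5 of 16 in the NK and cytotoxic cell list.

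Chemokines are the signals that call leukocytes into tissue, and adhesion molecules let them leave the blood. Of 30 chemokine ligand genes tested, 27 rose and 0 fell, 19 of them at least 2-fold, with a median difference of 1.22. Cxcl9, an interferon-induced attractant of T cells, rose from 6.78, 6.91 and 7.84 to 10.90, 11.48 and 11.12. Ccl8, an attractant of monocytes, rose from below the background controls (4.76, 4.89 and 5.06) to 8.40, 8.76 and 8.53, and Ccl9 rose by 2.80 ± 0.14. The ligands without a call were Cxcl3 (0.20), Cx3cl1 (0.08) and Ccl25 (-0.12).

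Among 16 receptors for chemokines, 11 rose and 1 fell, 5 of them at least 2-fold higher. Ccr1 rose from a vehicle mean below the background controls to 2.09 above them, and the other receptors that rose furthest were the monocyte receptor Ccr2 (2.68), Cxcr6 (2.10) and the neutrophil receptor Cxcr2 (1.71). Ackr4, a scavenger receptor that takes up chemokines, fell by 0.38. Of 19 adhesion genes, 16 rose and 0 fell, 12 at least 2-fold. They included both sides of the contact: Vcam1 of activated vessel cells rose from 6.76, 6.83 and 6.99 to 9.38, 9.78 and 9.33, the leukocyte integrin genes Itgam and Itgb2 rose by 2.27 and 2.12, and the hyaluronan receptor gene Cd44 rose by 2.72.

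Genes that sense microbes and damage rose as well. Of 18 Toll-like receptor and adaptor genes, 13 rose and 2 fell, 8 at least 2-fold higher and 1 at least 2-fold lower. The endosomal nucleic acid receptors Tlr8, Tlr13 and Tlr7 rose from vehicle means below the background controls to 2.22, 2.0 and 1.63 above them. Ly96, the co-receptor of Tlr4, went the other way, from 9.68, 9.94 and 9.61 to 8.64, 8.57 and 8.03, while Tlr4 itself rose by 0.71. The Ly96 groups did not overlap (limma adjusted p = 1.04e-04).

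Of 19 genes of the interleukin 1 family and the inflammasome, 15 rose and 1 fell, 11 at least 2-fold. Beside Il1b, the caspase genes Casp1 and Casp4, which cut gasdermin D and in the case of caspase 1 also activate interleukin 1 beta, both rose, Casp4 by 3.28. Casp1 and the antagonist gene Il1rn started below the background controls and reached 3.25 and 2.91 above them. Nlrc4, the inflammasome adaptor of the Naip sensors, fell by 0.48. The neighbouring genes Naip2, Naip5, Naip6 and Naip3 on chromosome 13 were each called at least 2-fold higher (1.076 to 1.685). Without WT_DES 2 the genes at least 2-fold higher in this list numbered 8.

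Of 19 genes of the tumour necrosis factor (TNF) and NF-kB pathway, 17 rose and 1 fell, among the risen the receptor gene Tnfrsf1b (2.27), the NF-kB subunit gene Rel (1.96) and the feedback inhibitor gene Tnfaip3 (1.94). In the interleukin 6 and JAK-STAT list, 11 of 20 rose and 4 fell, or 13 and 0 with the hybridization controls. Osmr, a receptor subunit for oncostatin M, rose from 7.30, 7.11 and 7.27 to 9.72, 10.45 and 9.69, and Stat3 rose by 0.96. Stat5b and Stat5a, which transmit prolactin and growth hormone signals, fell by 0.46 and 0.33.

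Antibody and complement genes followed. All 14 tested genes of the Fc receptor list rose, 12 of them at least 2-fold. In all 14 the groups did not overlap, which held for 60.9% of all genes tested. The differences of the 14 ran from 0.76 to 3.16, with a median of 1.57. Fcgr2b, the inhibitory receptor for IgG, rose from 6.74, 6.60 and 6.94 to 9.71, 10.44 and 9.59, Fcgr4 rose by 2.78 and the shared signalling chain gene Fcer1g rose by 2.71. Of 19 complement genes, 14 rose and 1 fell, led by Cfb of the alternative pathway (2.79) and by C1qb (2.57) and C4b (2.45) of the classical pathway. Of 20 genes of the phagocyte oxidase and lysosome, 18 rose and 0 fell. Cybb, the catalytic subunit of the phagocyte oxidase, rose from 6.87, 7.0 and 7.23 to 10.25, 10.82 and 10.39, and the lysosomal protease genes Lgmn and Ctsh rose by 2.36 and 2.12.

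The general leukocyte markers moved with these lists. Their mean level over 10 genes lay between 7.51 and 7.70 in WT_vehicle and between 8.97 and 9.36 in WT_DES, and 9 of the 10 rose. Ptprc, which encodes CD45 on all leukocytes, rose from 6.46, 6.50 and 6.92 to 9.54, 10.11 and 9.77, and Cd53 by 3.48. Cd52, a surface glycoprotein of lymphocytes that is also made by male genital tract epithelium, fell by 0.47. In whole tissue, more cells of a type and more RNA per cell cannot be told apart, here or in the results that follow.

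Lymphocyte genes differed in strength by class. Of 249 tested segments of immunoglobulin and T cell receptor genes, 167 were called at least 2-fold higher and 0 at least 2-fold lower, and they made up 18.1% of all genes called at least 2-fold higher. A segment could enter the test through the 3 WT_DES arrays alone, so the share of risen segments among those tested is no measure for all segments. Receptor segments are close copies of one another, so the value of any single one is uncertain. Tnfsf13b, the B cell survival factor BAFF, rose from 6.29, 6.33 and 6.26 to 7.92, 8.51 and 7.72. Cr2 is a complement receptor of B cells and follicular dendritic cells. It rose from a vehicle mean just below the background controls (5.28 against 5.31) to 1.09 above them. In the NK and cytotoxic cell list, 6 of 11 rose and 0 fell, and 1 of them, Klrd1 (1.11), reached 2-fold. Gzmb rose by 0.70 and Cd8b1 by 0.45, while the perforin gene Prf1 differed by -0.13 without a call. In the mast cell and eosinophil list, 4 of 8 rose, none by 2-fold, and 1 fell. The mast cell protease genes Cma1, Mcpt4 and Tpsb2 differed by 0.19, 0.12 and 0.09 without calls, and Cpa3 rose by 0.96, a call lost when WT_vehicle 2, WT_vehicle 3 or WT_DES 2 was left out.

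Many of these genes lie side by side. When 19848 tested genes outside the segments were put in chromosome order, 11 runs of at least 4 neighbours were all called at least 2-fold higher, and 0 such runs were at least 2-fold lower. Only 107 genes were at least 2-fold lower against 922 higher, so the 2 counts of runs cannot be compared. The runs were looked for after the values were seen. The longest, on chromosome 19, held 10 genes of which 9 were of the Ms4a family of leukocyte membrane proteins, from Ms4a14 to Ms4a6d, with differences of 1.51 to 3.60. A run of 5 chemokine genes on chromosome 11 (Ccl2, Ccl7, Ccl11, Ccl12 and Ccl8) spanned 1.20 to 3.66. Runs of interferon-induced genes included Ifi207, Ifi204, Ifi203-ps, Mndal and Ifi211 on chromosome 1 (2.29 to 2.88), Gbp8, Gbp9, Gbp4 and Gbp11 on chromosome 5 (1.99 to 2.56) and Trim5, Trim12a, Trim12c, Trim30b and Trim30a on chromosome 7 (1.55 to 2.19). Neighbours in such families can be similar in sequence and share probe signal, so they are not independent.

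Because genes of the interferon and myeloid families moved together, the bases before their starts were read for known motifs. The RefSeq promoter table (build GRCm38.p6) held 15933 promoters of 12694 tested genes, 632 of them of 538 genes called at least 2-fold higher and 91 of 79 genes called at least 2-fold lower. Both strands of the 250 bases before each start were searched. The core of the interferon-stimulated response element, TTTCNNTTTC, was present in 9.81% of the promoters of the higher genes, 4.4% of those of the lower genes and 2.62% of all. GAGGAAGT, bound by the myeloid factor PU.1, was present in 7.28%, 2.2% and 2.47%. TGANTCA, the AP-1 site, was present in 10.9%, 5.49% and 5.13%, and TATAAA, the TATA box, in 16.8%, 14.3% and 7.79%. The NF-kB motif was present in 7.28%, 4.4% and 4.76%, and TTCNNNGAA, the STAT-bound GAS element, in 9.81%, 8.79% and 5.95%. In the promoters of the higher genes the response element shared bases with an NF-kB match in 1 promoter and with a GAS match in 1, and with PU.1, AP-1 or TATA matches in 0 promoters. The estrogen response element palindrome GGTCANNNTGACC matched 4 of all the promoters (0.0251%) and 0 of those of the higher or the lower genes. These shares are descriptions without a test, a match is no evidence of binding, and promoters of gene families are close copies.

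The 4 stretches shown here were chosen as examples of a myeloid gene, an interferon-induced gene, an Fc receptor gene with 3 kinds of match and a gene that fell. All are on the plus strand of GRCm38.p6, 250 bases that end just before the gene's start, and capitals mark every match to a motif named above. S100a8 (chr3:90668821-90669070) holds a PU.1 match that starts 172 bases before the gene and a TATA box at 30 bases. Gbp2 (chr3:142620413-142620662) holds an AP-1 match at 102 and a response element core at 59 bases. Fcgr4 (chr1:171018676-171018925) holds an NF-kB match at 152, a response element core at 73 and a PU.1 match at 24 bases. Slc26a3 (chr12:31437969-31438218) holds a TATA box at 30 bases.
S100a8: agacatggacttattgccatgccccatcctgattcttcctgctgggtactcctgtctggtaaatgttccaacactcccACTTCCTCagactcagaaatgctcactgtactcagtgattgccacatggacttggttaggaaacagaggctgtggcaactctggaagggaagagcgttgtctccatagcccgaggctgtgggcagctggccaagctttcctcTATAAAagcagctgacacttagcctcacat
Gbp2: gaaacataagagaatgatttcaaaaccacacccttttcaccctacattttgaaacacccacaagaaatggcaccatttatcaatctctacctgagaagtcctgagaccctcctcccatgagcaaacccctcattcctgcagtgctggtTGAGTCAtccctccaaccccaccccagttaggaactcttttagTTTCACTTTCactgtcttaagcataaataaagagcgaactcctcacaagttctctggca
Fcgr4: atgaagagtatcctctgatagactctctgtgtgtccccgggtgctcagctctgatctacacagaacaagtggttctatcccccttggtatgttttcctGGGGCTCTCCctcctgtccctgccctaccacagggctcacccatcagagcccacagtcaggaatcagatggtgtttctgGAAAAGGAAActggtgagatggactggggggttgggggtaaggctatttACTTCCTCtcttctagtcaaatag
Slc26a3: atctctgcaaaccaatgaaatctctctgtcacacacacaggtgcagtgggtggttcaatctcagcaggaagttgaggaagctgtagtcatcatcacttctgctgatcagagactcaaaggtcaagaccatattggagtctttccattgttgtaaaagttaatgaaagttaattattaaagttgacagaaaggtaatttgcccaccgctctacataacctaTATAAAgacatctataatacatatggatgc
Gbp2, a guanylate-binding protein of the interferon response, rose from 7.22, 7.30 and 7.75 to 10.48, 11.14 and 10.59, beside S100a8 and Fcgr4 above.

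The epithelium showed both gains and losses. The gasdermins, pore-forming proteins of cell death, split by family: Gsdmc2 rose from 5.63, 5.18 and 5.69 to 10.17, 10.76 and 10.07, Gsdmc3 by 4.28 and Gsdmc4 from below the background controls to 2.67 above them, whereas Gsdma fell from 11.55, 11.39 and 11.33 to 10.46, 10.04 and 9.45, Gsdma3 fell by 1.0 and Gsdma2 fell by 0.61. The Gsdmc genes are close copies, so their separate values are uncertain. Of the whole list of gasdermins and death effectors, 13 of 19 rose and 4 fell, or 14 and 2 with the hybridization controls.

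Of 19 genes of the cornified envelope and epidermal differentiation, 9 rose, 5 of them at least 2-fold, and 1 fell. The small proline-rich genes led: Sprr2b rose from 8.54, 8.50 and 8.68 to 10.82, 11.50 and 11.39 and Sprr2d by 2.45. Sprr1a rose by 1.80. The keratin genes of suprabasal epidermis Krt10 (-0.04) and Krt16 (0.04) and the loricrin gene Lor (-0.06) had no call. Basal cell markers moved with this list: 6 of 7 rose, and their mean lay between 8.29 and 8.35 in WT_vehicle and between 9.08 and 9.30 in WT_DES. Krt15 rose from 8.0, 7.95 and 7.84 to 10.24, 10.54 and 10.28, Krt5 by 1.62, Krt14 by 0.74 and the integrin gene Itgb4 by 0.51. Of 8 luminal markers, 6 rose by less than 2-fold, with Cdh1 the highest at 0.64, but 2 did under quantile normalization. Krt18 fell by 0.30, but this call was lost without WT_vehicle 3 or WT_DES 2, and its difference was 0.06 with the hybridization controls.

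The mucous cell list also split. The Clca gene Clca3a2 rose from 8.07, 8.04 and 8.20 to 11.60, 12.24 and 11.86 and Clca3a1 by 3.41. Clca1, the goblet cell gene among these 3, rose by 3.06 and the cell surface mucin gene Muc1 by 1.53. Agr2, a disulfide isomerase needed to fold gel-forming mucins, fell from 11.61, 11.37 and 11.14 to 10.71, 9.93 and 9.62, and Spdef, a transcription factor of goblet cells, fell by 0.86. The secreted mucin genes Muc5b (0.14) and Muc5ac (-0.14) had no call. Over the list, 7 of 18 rose and 7 fell, or 8 and 3 with the hybridization controls. Of 22 claudin and junction genes, 5 rose and 7 fell, or 8 and 2 with the hybridization controls, and none reached 2-fold, and the greatest differences were the falls of the connexin gene Gjb2 (by 0.81) and of Cldn23 (by 0.75).

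Among 24 epithelial transcription factors, 11 rose and 6 fell, or 15 and 1 with the hybridization controls. Klf5 rose from 7.79, 7.72 and 7.80 to 9.06, 9.34 and 9.27, Sox4 by 1.30 and Runx1 by 1.16. Elf5, a factor of secretory cells in the mammary gland, fell from 10.02, 10.14 and 10.15 to 9.57, 9.04 and 9.03. In the list of EGF ligands and receptors 7 of 14 rose and 3 fell, or 8 and 1 with the hybridization controls. Beside the loss of Egf, its receptor gene Egfr rose by 1.04, the ligand gene Ereg by 0.78 and the shedding protease gene Adam17 by 1.31.

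Stromal genes rose on the connective tissue side. All 7 tested fibroblast markers rose, 6 at least 2-fold, and their mean went from 8.60 to 8.96 in WT_vehicle to 10.32 to 10.81 in WT_DES. Lum, the collagen-binding proteoglycan lumican, rose from 7.41, 6.81 and 7.07 to 10.41, 11.003 and 10.30, Dcn by 1.96 and Col3a1 by 1.82. Of 20 matrix protease genes and inhibitors, 17 rose and 1 fell, with Mmp8 of neutrophils reaching 2.31 above the background controls, below which it started, and the stromal proteases Mmp2, Mmp3 and Mmp14 at 1.77, 1.71 and 1.70. Plau, the urokinase gene, was the one that fell, from 9.88, 10.18 and 10.40 to 9.40, 8.93 and 8.87.

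Tgfbi, a matrix protein induced by TGF-beta, rose from 8.05, 8.03 and 8.19 to 11.02, 11.57 and 11.05, and the receptor gene Tgfbr2 by 1.34. Fgf7, a growth factor that stromal cells send to epithelium, rose by 1.05. In the Wnt list the 3 genes that rose at least 2-fold were all secreted antagonists: Sfrp1 (8.14, 7.83 and 7.86 to 10.30, 10.80 and 10.08), Sfrp4 (2.35) and Dkk2 (1.82). Axin2 and Znrf3, feedback targets of Wnt signalling, fell by 0.41 and 0.49. These falls were under 2-fold, and with the hybridization controls the list had 11 genes called higher and 0 lower in place of 6 and 8. Vessel genes rose more often than they fell (12 and 1 of 18), among them Pdpn of lymphatic vessels (1.43), the growth factor gene Vegfd (1.22) and Hif1a (1.20).

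Smooth muscle markers were lower in the deposited scaling. Of 8 tested, 0 rose and 6 fell, all by less than 2-fold, whereas with the hybridization controls none of the 8 was called (median -0.07). The falls in the deposited scaling included Actg2 (fell by 0.67) and Cnn1 (fell by 0.54), and the mean of the markers moved from between 10.95 and 11.06 to between 10.54 and 10.71. Receptors and channels of contraction were mixed (5 of 20 rose and 6 fell, or 8 and 2 with the hybridization controls): beside Smpx, the calcium store gene Casq2 fell by 0.71, and the receptor gene P2ry6 rose by 1.15.

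The secretory products differed little. Svs4 read 13.80, 13.87 and 13.83 and 13.80, 13.78 and 13.73, with overlapping groups and no call (limma adjusted p = 0.428). Svs1 fell by 0.42, Svs2 by 0.36 and Sva by 0.36, and over the 10 markers 1 rose and 6 fell, but with the hybridization controls 1 rose and 0 fell. These transcripts lie near the top of the array's range (the highest value on any array was 14.5), where differences can be compressed.

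Single genes of transport and metabolism differed more than the secretory products, while the ion and bicarbonate list as a whole had a median difference of 0.05. Of 26 ion and bicarbonate transport genes, 8 rose and 6 fell, or 14 and 3 with the hybridization controls. Slc26a3 was joined by the proton pump gene Atp12a, which fell from 10.85, 10.97 and 10.86 to 9.87, 9.20 and 8.86, and by the sodium and proton exchanger gene Slc9a2, which fell by 1.29. The carbonic anhydrase gene Car13 rose from 7.01, 6.88 and 6.86 to 9.05, 9.56 and 9.10. Amino acid genes fell more often than they rose (13 and 5 of 24, or 9 and 7 with the hybridization controls). Beside the losses of Gad2 and Aass, the tryptophan-degrading enzyme gene Ido1 rose from 6.33, 6.44 and 6.58 to 8.30, 8.80 and 9.06 and the cystine carrier gene Slc7a11 by 1.55.

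Iron genes rose with Ltf: 15 of 25 were higher and 2 lower. Lcn2, which binds bacterial iron carriers, rose from 8.60, 8.76 and 8.91 to 11.05, 11.51 and 11.36, the ferroxidase gene Cp by 2.37 and the haptoglobin gene Hp by 2.28. Of 17 zinc genes 6 rose and 8 fell, or 7 and 1 with the hybridization controls: the importer gene Slc39a4 rose from 7.46, 7.41 and 7.52 to 8.65, 9.03 and 9.40, whereas the metallothionein gene Mt3 fell by 0.97. Of 24 fatty acid and cholesterol genes 8 rose and 3 fell, or 8 and 8 with the arrays at the same median. The lysosomal lipase gene Lipa rose by 2.10, the cholesterol exporter gene Abca1 by 1.70 and Apoe by 1.23, beside the fall of Pnliprp1. Of 17 polyol and sugar genes 7 rose and 5 fell, or 11 and 0 with the hybridization controls, and the largest differences were those of Akr1b8 (1.58), Hk2 (0.90), Pfkp (0.79) and Pkm (0.77). Of the 38 respiratory chain genes, 12 fell and 0 rose, by at most 0.93 (Ndufa1), but with the hybridization controls 12 rose and 1 fell, so no direction can be given for them. Sialic acid transferase genes St6gal1 and St3gal1 rose by 1.30 and 1.19, while the fucose transferase gene Fut9 fell by 1.03.

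In the lipid mediator list, 10 of 23 rose and 4 fell, or 15 and 0 with the hybridization controls. Pla2g7, which breaks down platelet-activating factor, rose from 7.12, 6.90 and 7.03 to 9.95, 10.46 and 9.79, and Alox5ap, needed for leukotriene synthesis, by 2.68. Hpgd, which inactivates prostaglandins, fell by 0.64. Ptgs2, the inducible cyclooxygenase gene, is named here although it was chosen after its values were seen. Its levels were 10.53, 7.30 and 8.26 in WT_vehicle and 10.70, 11.23 and 10.50 in WT_DES, and the difference of 2.11 was not called (limma adjusted p = 0.0598), whereas without WT_vehicle 1 it was 3.03 (adjusted p = 0.0108) and without WT_vehicle 2 it was 1.41 (adjusted p = 0.221). Immunoproteasome genes rose (Psmb8 1.18, Psmb10 0.93 and Psmb9 0.52), and of the 25 proteasome genes in that list 7 rose and 0 fell, or 21 and 0 with the hybridization controls.

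Hormone receptors and patterning genes moved little. Esr1 read 7.80, 7.66 and 7.80 and 7.74, 7.68 and 7.55, and the groups overlapped. Esr2 read 6.60, 6.59 and 6.59 and 6.25, 6.05 and 6.21, a difference of -0.42 (limma adjusted p = 4.95e-04) that was -0.07 and not called with the hybridization controls. Pgr, the progesterone receptor gene and a classical target of estrogen receptor alpha, rose from 6.33, 6.23 and 6.31 to 6.80, 7.19 and 6.91 (difference 0.67 ± 0.10). Of 27 Hox genes, which set position along the tract, 2 rose and 11 fell, none by 2-fold, while with the hybridization controls 8 rose and 1 fell. Hoxb13, expressed in the prostate and hindgut, fell from 8.54, 8.08 and 8.20 to 7.57, 7.21 and 7.20 and Hoxd13 rose from 8.51, 8.57 and 8.68 to 9.49, 9.68 and 9.21. In both genes the groups did not overlap, which held for 60.9% of all genes tested. Of retinoid genes, the synthesis enzyme gene Aldh1a3 rose by 1.36 and Dhrs3 by 1.04, and Rarres1 fell by 0.96. In the Notch list Notch2 and Jag1 rose by 0.96 and 0.87, and the hedgehog inhibitor gene Hhip fell by 0.82.

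Of 11 aquaporin genes 2 rose and 1 fell, with Aqp3 at 1.02, Aqp1 at 0.52 and Aqp5 at -0.41, the last lost without WT_vehicle 1 or WT_DES 2 and with the hybridization controls. Of 16 polyamine and arginine genes 3 rose and 5 fell, or 5 and 0 with the hybridization controls, with the polyamine-degrading enzyme gene Sat1 at 1.36 and the spermidine synthase gene Srm at -0.68. Of 15 genes of lymphocyte survival and lymphoid organization 8 rose and 1 fell.

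**Figure D3:**
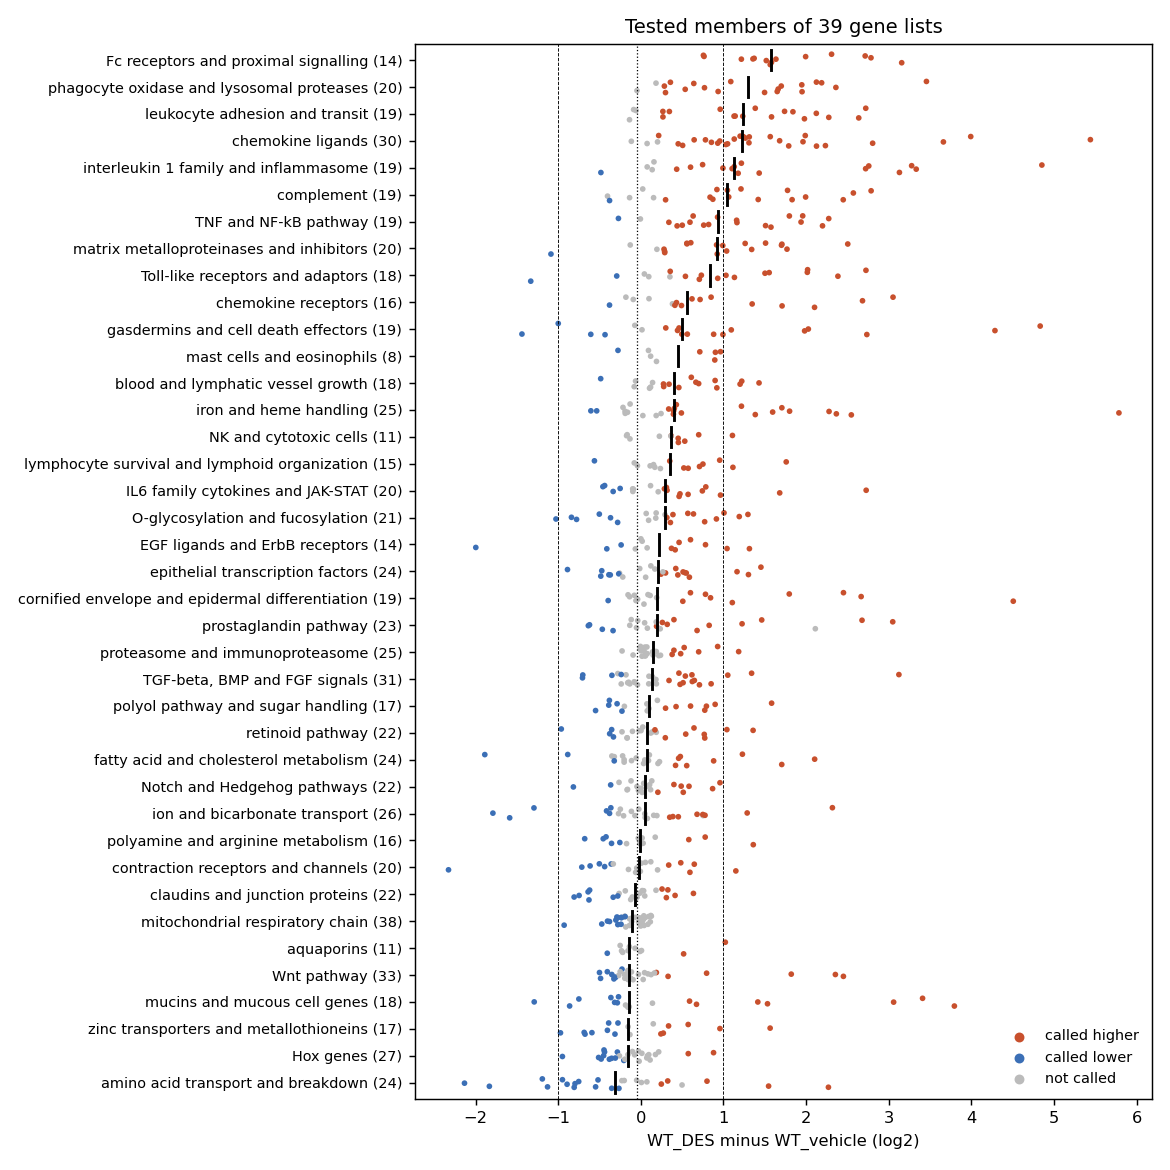
Difference between WT_DES and WT_vehicle (horizontal axis, log2) of each tested member of 39 gene lists, coloured by its call, with a bar at each list's median, dashed lines at 2-fold and a dotted line at the median of all genes (-0.05). Medians run from 1.57 in the Fc receptor list, whose 14 points are all called higher, to -0.31 in the amino acid list.

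The 3 WT_DES arrays did not respond equally. Of the 755 genes outside the receptor segments called at least 2-fold higher, 696 were highest on WT_DES 2, and the median excess over the vehicle mean was 1.33, 1.80 and 1.43 on WT_DES 1, 2 and 3. Of the 107 genes called at least 2-fold lower, 103 were least lowered on WT_DES 1, with median differences of -0.86, -1.36 and -1.42. Without WT_DES 1, 191 genes were at least 2-fold lower. The receptor segments did not follow the first order: 31 of the 167 were highest on WT_DES 2, 83 on WT_DES 3 and 53 on WT_DES 1, with medians of 4.25, 4.27 and 4.37 on WT_DES 1, 2 and 3. WT_DES 2 also had the lowest hybridization controls (11.2, against 11.5 and 11.4 on WT_DES 1 and 3) and the lowest mean of 147 small RNA genes (9.80, against 10.2 and 10.5). The part of these in the order of the arrays was not tested.

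**Figure D4:**
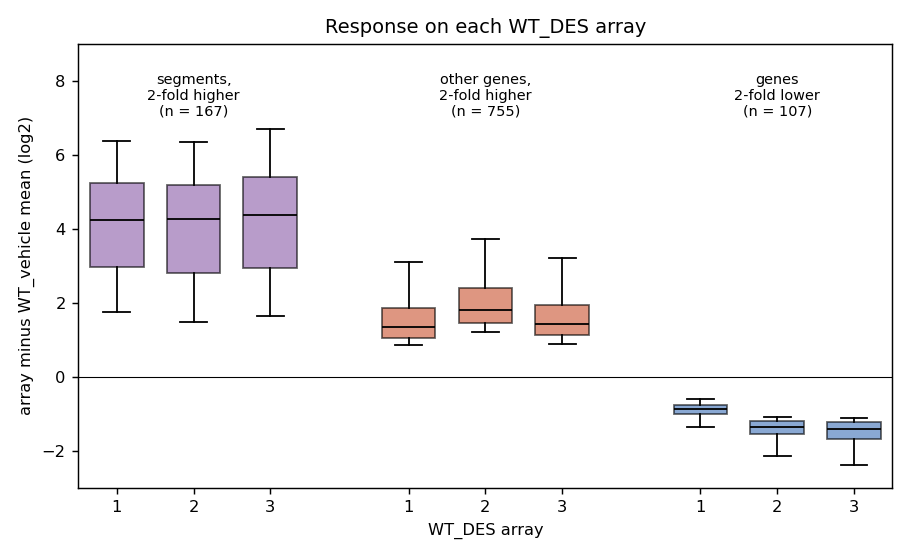
Level on each WT_DES array minus the WT_vehicle mean (vertical axis, log2) for the immune receptor segments called at least 2-fold higher (167), the other genes called at least 2-fold higher (755) and the genes called at least 2-fold lower (107). Boxes span the quartiles around the median, and whiskers reach percentiles 5 and 95. WT_DES 2 is highest in the middle group (median 1.80) and WT_DES 1 nearest to 0 in the last (-0.86).

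Some genes varied widely among the WT_DES arrays. Beside Prol1 and Orm3, the widest ranges over WT_DES belonged to Msmb, a secreted protein of the prostate (12.66, 7.25 and 8.28 in WT_vehicle, 11.66, 8.77 and 11.79 in WT_DES), Cyp4a12a (6.03, 5.71 and 7.54 and 9.47, 8.14 and 7.77), the pseudogene Obox4-ps11 (5.68, 5.56 and 7.26 in WT_DES), Odam (7.83, 6.20 and 6.42), Ms4a5 (10.98, 10.32 and 9.43), Cyp3a57 (7.90, 7.30 and 6.37), Cdcp3 (9.89, 8.40 and 9.06) and Ccn1 (8.93, 10.01 and 8.50). Of these 8, Ccn1, a matricellular protein, was called (difference 1.53, limma adjusted p = 0.00101).

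Markers of neighbouring tissue showed where WT_vehicle 1 stood apart. The mean of 4 prostate markers was 12.81 on WT_vehicle 1 against 11.32 and 11.55 on the other 2, and 12.43, 11.59 and 12.12 on WT_DES 1 to 3. Msmb carried this spread, with the values given above, while Tgm4 (13.65, 13.55 and 13.51) and Pbsn (13.02, 12.72 and 12.71) were nearly level over the WT_vehicle arrays. The mean of 6 adipocyte markers was 8.37 on WT_vehicle 1 against 6.96 and 7.40, and 7.61 to 7.81 in WT_DES. The mean of 5 urothelium markers was 8.38 against 8.0 and 8.12, and 7.98 to 8.20 in WT_DES, and that of 4 epididymis markers stayed between 6.25 and 6.52. Over the 6 WT arrays as deposited, none of the adipocyte and epididymis markers was called, the urothelium markers Upk1b and Upk2 fell by 0.70 and 0.59, Tgm4 and Pbsn fell by 0.70 and 0.60 and Mmp7 rose by 0.56. The other 3 of the 5 urothelium markers were not called, and the highest difference among them was 0.77. With the hybridization controls the falls of Upk1b, Upk2, Tgm4 and Pbsn were not called. In that scaling 2 of the 5 urothelium markers rose, 1 of them at least 2-fold, and 0 fell. The Pbsn call was also lost without WT_vehicle 1, WT_DES 2 or WT_DES 3, and the Mmp7 call under quantile normalization and without WT_vehicle 2, WT_vehicle 3 or WT_DES 2. Leaving out WT_vehicle 1 moved Msmb from 1.35 to 2.98 (adjusted p = 0.0309) and leaving out WT_vehicle 2 moved it to 0.27 (adjusted p = 0.878). At least 2-fold calls without WT_vehicle 1 numbered 945 higher and 121 lower. The part of adjoining tissue in the results was not tested.

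The WT response was set against that of aERKO mice, which does not share arrays with it. For 23.3% of genes tested the response differed between the genotypes (limma interaction, adjusted p below 0.05), and among the genes called in WT at least 2-fold this held for 919 of 922 higher and 101 of 107 lower. The interaction contains the WT difference for which these genes were chosen, so their high share follows in large part from the choice. In aERKO, limma called 0 genes between DES and vehicle, with 264 at an unadjusted p below 0.05, and 0 with trend and robust moderation or array weights. The genes called at least 2-fold higher in WT had a median difference of 1.66 there and 0.05 in aERKO, and those called at least 2-fold lower had -1.19 and -0.11. S100a8 differed by -0.07 in aERKO, Ltf by 0.12, Cxcl13 by 0.09, Il1b by 0.08, Krt15 by 0.01 and Lum by 0.24. Smpx differed by -0.29, Gad2 by -0.09, Egf by -0.06 and Slc26a3 by -0.19. Among the 922, the largest aERKO difference was that of the segment Igkv5-39 (0.68). Of the 9 genes called at least 2-fold in WT whose response was not called different, Ctse, an aspartic protease gene, and Fut9 are examples, with WT differences of 1.13 and -1.03 and aERKO differences of 0.29 and -0.16.

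**Figure D5:**
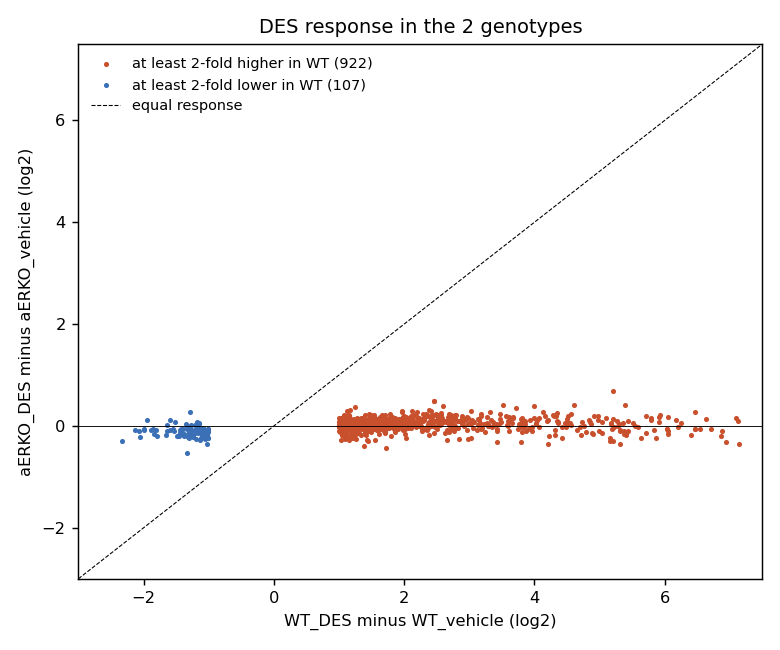
Response to DES in aERKO (vertical axis, log2) against that in WT (horizontal axis, log2) for the 922 genes called at least 2-fold higher and the 107 called at least 2-fold lower in WT, chosen on the horizontal axis, with a dashed line of equal response. The points lie along 0 on the vertical axis, between -0.52 and 0.68.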

How the data were processed

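RNA from 12 seminal vesicle samples, 3 per group in 4 groups, was extracted with Trizol, and 300 ng was labelled with the Affymetrix WT Plus kit and hybridized to 1 array per sample. The deposited values are log2 levels per probe set that the authors made with RMA in Expression Console, per the submitters' processing notes (tool versions, settings and build: not given in the sources used here). RMA subtracts background and forces the arrays towards 1 distribution, so it can move small differences and hide a shift shared by most genes. Scanner files were not used here. Precision is limited by how many arrays there are.

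Of 72688 probe sets, 30604 had exactly 1 symbol in the platform annotation, 2146 had several and 39938 had none; 1135 symbols were updated through the RefSeq table. They stand for 30063 genes, each represented by its brightest probe set, averaged across the 12 arrays. A gene was tested if it lay above the array median on at least 3 of the 12 arrays, which left 20102. One mean per group was fitted with limma 3.58.1 in R 4.3.3 (lmFit and eBayes, 8 residual and 4.33 prior degrees of freedom), with Benjamini-Hochberg adjustment over all genes tested. The fit was tested on simulated data. An exact permutation test of 3 against 3 arrays cannot go below p = 0.1.

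The members, the gene lists and the naming rule were chosen with earlier results of these data known. The rule names the 12 largest increases and 12 largest decreases without overlap. From these it leaves out provisional names, small RNAs, receptor segments and the constant genes of immunoglobulins and T cell receptors. It also names the 4 largest called differences of each list, the 10 genes with the widest WT_DES range, genes called in both genotypes (0 were found), and Esr1, Esr2, Pgr, Ltf, Svs4 and Ptprc. Some genes that the rule names are not reported here. Alternatives covered the filter, the probe set rule, moderation, the arrays in the fit, array weights, 3 scalings, a replicate block and leaving out each array; leaving out the DES arrays numbered 3 together was added after seeing the data.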

Additional observations from a re-analysis of the deposited data

Results flagged for a closer look

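Results were singled out where the response to DES differed between WT and aERKO by the interaction term of the limma fit, which called 4679 of the 20102 genes tested. Among the 12 largest increases in WT, the WT response exceeded the aERKO response by 6.79 for S100a8, 5.66 for Ltf, 5.35 for Cxcl13, 5.07 for S100a9, 5.40 for Prol1, 4.77 for Il1b, 4.72 for Gsdmc2, 4.49 for Sprr2f, 4.35 for Serpina3n, 4.08 for Gsdmc3, 4.42 for Retnlg and 3.85 for Lyz2 (log2). Among the 12 largest decreases the difference between the responses was -2.03 for Smpx, -2.05 for Gad2, -1.98 for Doxl2, -1.83 for Nxf7, -1.94 for Egf, -1.82 for Pnliprp1, -1.79 for Glb1l3, -1.68 for Aass, -1.73 for Tent5d, -1.60 for Slc26a3, -1.65 for Orm3 and -1.53 for Fgl1. The interaction's adjusted p among these 24 ran from 6.62e-10 (S100a8) to 0.0129 (Orm3). For S100a8, Sprr2f and Retnlg the vehicle levels lay below the background controls, so their 3 values are fitted and not measured sizes. These genes were chosen for their WT response, so the sizes are a description. Groups of 3 arrays are too small for a test of single outlying arrays.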

How the results depend on the processing

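The at least 2-fold increases kept a similar number under most settings and the small decreases did not. Moving the arrays to the hybridization controls gave 8345 genes higher, 350 lower, 1537 at least 2-fold higher, 30 at least 2-fold lower and 2939 with a response that differed between genotypes. Quantile normalization gave 7142 lower and 201 at least 2-fold lower, the same median gave 7115 lower, and the stricter filter, which tests 12519 genes, gave 3062 lower. Array weights gave 48 at least 2-fold lower and 8164 genotype differences; the cause was not tested. Leaving out each array in turn gave 3374 to 4425 higher, 3028 (without WT_DES 2) to 5430 lower, 818 to 979 at least 2-fold higher, 82 to 191 (without WT_DES 1) at least 2-fold lower and 3401 to 5713 genotype differences. Without WT_vehicle 2, 3104 genes were lower. Of the 206 genes named by rule, 19 lost and 3 gained a call with the hybridization controls and kept their sign. A further 2, Svs2 (0.0003) and Krt18 (0.0553), changed sign there and also lost their calls. Same-numbered WT arrays did not deviate together (correlations -0.0034, -0.0429 and 0.075), but groups of 3 arrays cannot settle whether the numbers pair the samples. WT_DES 3 and aERKO_DES 3 stood together on the second principal component (-17.3 and -23.3), and a shared batch was not tested. With the replicate block 4502 genes were higher, 5486 lower, 924 at least 2-fold higher, 107 at least 2-fold lower and 5991 differed between genotypes. For 131 of the 922 genes the vehicle mean lay below the background controls, which leaves the size of their rise unmeasured.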
